A study of Mus musculus with 16 samples.

Results

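A set of 8 basophil and mast cell genes, out of 32286 genes in each matrix, was followed through 12 single-cell RNA libraries of mouse bone marrow. They were listed by name, as Mcpt8, Cpa3, Prss34, Ms4a2, Fcer1a, Hdc, Il4 and Il6, with earlier results of these libraries known. Bone marrow came from female WT BALB/c mice in 3 groups. Untreated mice without a tumor are called WT here (labelled ctrl), and the other mice carried a transplanted 2208L mammary tumor, a Trp53-null line, and received either vehicle (methylcellulose) or IACS-70654, an inhibitor of the bromodomain of the coactivators CBP and p300. The treatment lasted 7 days by the labels, whereas the text of the study gives a shorter time for the marrow. Each group was sorted as CD45+ Ter119- cells, called CD45+ below, and as lineage-negative CD117+ cells, called c-Kit+ below, and each sort has 2 libraries per group. Vehicle differs from WT in the tumor and in the dosing, which cannot be told apart. Marrow of 3 mice was pooled, per treatment group by the labels and per sample by the methods. The 2 libraries of a group may be parts of 1 pool, and p-values measure only the spread between libraries.

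Basophils and mast cells are granulocytes that carry the high-affinity receptor for IgE on their surface and release stored histamine and proteases, and newly made lipid mediators and cytokines, when the receptor is crosslinked. Both arise in the bone marrow from c-Kit+ progenitors that depend on GATA factors. Basophils leave the marrow mature and lose most c-Kit, whereas mast cells keep c-Kit and mature in tissues, where their granules fill with tryptases and chymases. Mcpt8 and Prss34 encode serine proteases of mouse basophil granules, Cpa3 encodes carboxypeptidase A3 of mast cell and basophil granules, Fcer1a and Ms4a2 encode the alpha and beta chains of the IgE receptor, Hdc encodes histidine decarboxylase, which makes histamine, and Il4 and Il6 encode cytokines.

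The libraries held 4394 to 6154 CD45+ cells and 2836 to 7517 c-Kit+ cells after filtering, with medians of 4113 to 6597 and 6712 to 9512 UMIs (counted molecules) per cell. The sorts hold different cell types, so these medians do not compare the depth of the same kind of cell. A level below is the number of UMIs of a gene per 1000000 UMIs (CPM) of the named cells of 1 library. UMI counts were not divided by length, so levels are compared between cells and groups and not between genes. Cells were clustered without the 8 genes and named from other markers, such as Gata2, Cd200r3, Il1rl1 and Gzmb for the basophil/mast-like class. Libraries of 1 group differed beyond counting noise (chi-square per gene from 1.89 to 4.90), so none repeats another. Libraries of a sort shared no cell barcode, whereas pairs of libraries from different sorts shared 1 to 14. Splitting 1 capture by sample tags also gives no shared barcode, so the lack of any does not show that the libraries are independent. Calls of changed genes needed an edgeR adjusted p below 0.01 together with a log2 change of more than 0.5 either way, and ± after a log2 change gives its SE.

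The 250 bases upstream of 5 of the genes are shown here because 4 of them moved together in c-Kit+ cells and Cpa3 did not, and because GATA factors bind the letters GATAA. Capitals mark GATAA, or TTATC where it lies on the opposite strand, and each sequence runs 5′ to 3′ toward the transcription start (RefSeq, GRCm38.p6). They lie at chr3:20242182-20242431 (Cpa3, minus strand), chr17:25298144-25298393 (Prss34, plus strand), chr19:11623720-11623969 (Ms4a2, minus strand), chr1:173227230-173227479 (Fcer1a, minus strand) and chr14:56085198-56085447 (Mcpt8, minus strand).
Cpa3: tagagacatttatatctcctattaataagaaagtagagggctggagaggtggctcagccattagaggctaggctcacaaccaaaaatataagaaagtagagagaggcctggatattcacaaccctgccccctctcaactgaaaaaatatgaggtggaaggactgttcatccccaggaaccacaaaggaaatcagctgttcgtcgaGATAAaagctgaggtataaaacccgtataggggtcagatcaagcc
Prss34: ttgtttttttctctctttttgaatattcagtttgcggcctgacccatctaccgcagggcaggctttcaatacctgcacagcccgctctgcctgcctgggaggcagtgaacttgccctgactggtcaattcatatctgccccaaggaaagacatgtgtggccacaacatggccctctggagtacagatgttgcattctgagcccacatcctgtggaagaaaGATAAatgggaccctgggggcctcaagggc
Ms4a2: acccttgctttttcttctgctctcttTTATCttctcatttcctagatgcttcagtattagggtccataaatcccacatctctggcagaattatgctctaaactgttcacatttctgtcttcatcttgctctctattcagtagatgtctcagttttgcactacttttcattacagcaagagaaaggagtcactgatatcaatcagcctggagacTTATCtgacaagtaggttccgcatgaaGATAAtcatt
Fcer1a: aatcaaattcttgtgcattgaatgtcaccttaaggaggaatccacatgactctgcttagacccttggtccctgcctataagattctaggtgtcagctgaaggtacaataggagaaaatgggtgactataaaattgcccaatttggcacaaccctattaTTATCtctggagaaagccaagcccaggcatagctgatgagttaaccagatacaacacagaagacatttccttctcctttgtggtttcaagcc
Mcpt8: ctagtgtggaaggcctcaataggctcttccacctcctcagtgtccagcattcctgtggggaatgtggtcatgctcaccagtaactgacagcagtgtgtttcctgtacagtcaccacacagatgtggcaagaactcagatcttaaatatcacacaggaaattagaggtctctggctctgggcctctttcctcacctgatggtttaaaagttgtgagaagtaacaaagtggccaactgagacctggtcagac
GATAA occurred 3 times upstream of Ms4a2, of which 1 match lay 10 to 6 bases before the start on the same strand. It occurred once upstream of Cpa3 (45 to 41 bases before the start), Prss34 (30 to 26 bases before it), Fcer1a (92 to 88 bases before it, opposite strand) and Il6 (55 to 51 bases before it, opposite strand), and nowhere in these windows upstream of Mcpt8, Hdc and Il4. Of 32851 annotated promoters of the same length, 22.6% held GATAA on either strand and 4.28% held it more than once. The letters TTGCNNAA, which C/EBP factors can bind, stood upstream of Fcer1a, Il6 and the more upstream of the Il4 starts (9.56% of all promoters), and TTCNNNGAA, which STAT factors can bind, stood in none of these windows (7.02% of all promoters). A match is a run of letters and not a measured binding site. The genes themselves lie at chr14:56082166-56085273 (Mcpt8), chr3:20215620-20242181 (Cpa3), chr17:25298394-25300165 (Prss34), chr19:11615523-11623719 (Ms4a2), chr1:173221284-173227214 (Fcer1a), chr2:126593667-126619299 (Hdc), chr11:53602982-53618669 (Il4) and chr5:30013114-30019981 (Il6), all protein-coding. These gene positions are from GENCODE (GRCm38), whose starts can differ from the RefSeq starts. The windows of Mcpt8 and of the more upstream Il4 start thus overlap the genes as given here. Those of Hdc and of the other Il4 start lie inside them.

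In CD45+ cells, most UMIs of 6 of the 8 genes in every library were found in 1 small cluster of 185 cells, the basophil/mast-like class. It held 82.8% to 96.6% of a library's Mcpt8 UMIs, 87.0% to 98.6% of its Prss34 UMIs and 76.7% to 92.6% of its Cpa3 UMIs. The receptor chains were alike, at 78.8% to 93.8% (Ms4a2) and 86.1% to 95.6% (Fcer1a), and Il6 was at 74.2% to 99.1%. Il4, with 10 to 43 UMIs per library, ranged from 23.1% in an IACS-70654 library to 91.7% in a WT library. Pooled over libraries, Mcpt8 stood at 12415 CPM in this class and at 22.6 CPM in the next class, the HSC-MPP cells (stem and multipotent progenitor-like). Hdc was found elsewhere. Pooled over libraries, mature neutrophil-like cells held it at 686 CPM and the basophil/mast-like class at 680.3 CPM, but the class was the higher of the pair in WT and IACS-70654 libraries and the lower in vehicle libraries, as given below. Neutrophils of all stages held 89.3% to 97.7% of a library's Hdc UMIs.

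In c-Kit+ cells the class consisted of 2 clusters, which differed most in Prss34 and Mcpt8. The larger, of 925 cells, was led by Cd200r3, Cdh1, Cyp11a1 and Alox5 besides Prss34, Mcpt8, Fcer1a and Ms4a2, and is called the Cd200r3 cluster. The smaller, of 722 cells, was led by Gzmb, Scin, Hs6st2 and Gpr183 and is called the Gzmb cluster. The Cd200r3 cluster held Prss34 at 3870.5 CPM and Mcpt8 at 5414 CPM, against 4.26 and 254 CPM in the Gzmb cluster, whereas Cpa3 was at 1763 and 2248 CPM, so Cpa3 was shared and the basophil proteases were not. Il4 (24.2 and 29.8 CPM), Il6 (36.6 and 50.4 CPM) and Hdc (227 and 121 CPM) were also found in both. Together the clusters held 80.4% to 95.1% of a library's Prss34 UMIs and 51.1% to 86.9% of its Mcpt8 UMIs. Ms4a2 was at 52.4% to 77.4%, Fcer1a at 62.0% to 74.0%, Cpa3 at 47.2% to 77.9% and Hdc at 10.3% to 30.2%. The rest lay in other c-Kit+ cells. Kit itself ran from 329 to 446 CPM in the Gzmb cluster and from 89.1 to 138 CPM in the Cd200r3 cluster. Cma1, a mast cell chymase, was at 66.1 to 136 CPM in the Gzmb cluster and at no more than 3 UMIs a library in the Cd200r3 cluster. Mcpt1, Tpsb2 and Tpsab1, proteases of mature mast cells, had 0 UMIs in either cluster and in the CD45+ class in every library, so neither cluster is called a mast cell.

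Another c-Kit+ cluster, of 706 cells, was led by Ms4a2, Fcer1a, Apoe and genes of mitosis such as Pimreg and Nusap1. It was left unnamed, because its best match, dividing neutrophil precursors, rested on genes of cell division alone. It is called the cycling Ms4a2 cluster. It held Ms4a2 at 189 CPM, Fcer1a at 166 CPM, Cpa3 at 233 CPM and Mcpt8 at 127 CPM. Outside these clusters the eosinophil-like cells held Cpa3 at 276, Hdc at 288, Fcer1a at 211, Mcpt8 at 202 and Ms4a2 at 105 CPM. Their Mcpt8, Cpa3 and Fcer1a were thus above those of the cycling Ms4a2 cluster. HSC-MPP cells held Cpa3 at 90.4 CPM. Cpa3 was also at 226 CPM in the 147 T or NK-like cells and at 105 and 110.5 CPM in a pair of unnamed clusters of 2146 and 1750 cells. Pooled Il4 and Il6 were below 10 CPM in every c-Kit+ class besides the Cd200r3 and Gzmb clusters.

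**Figure D1:**
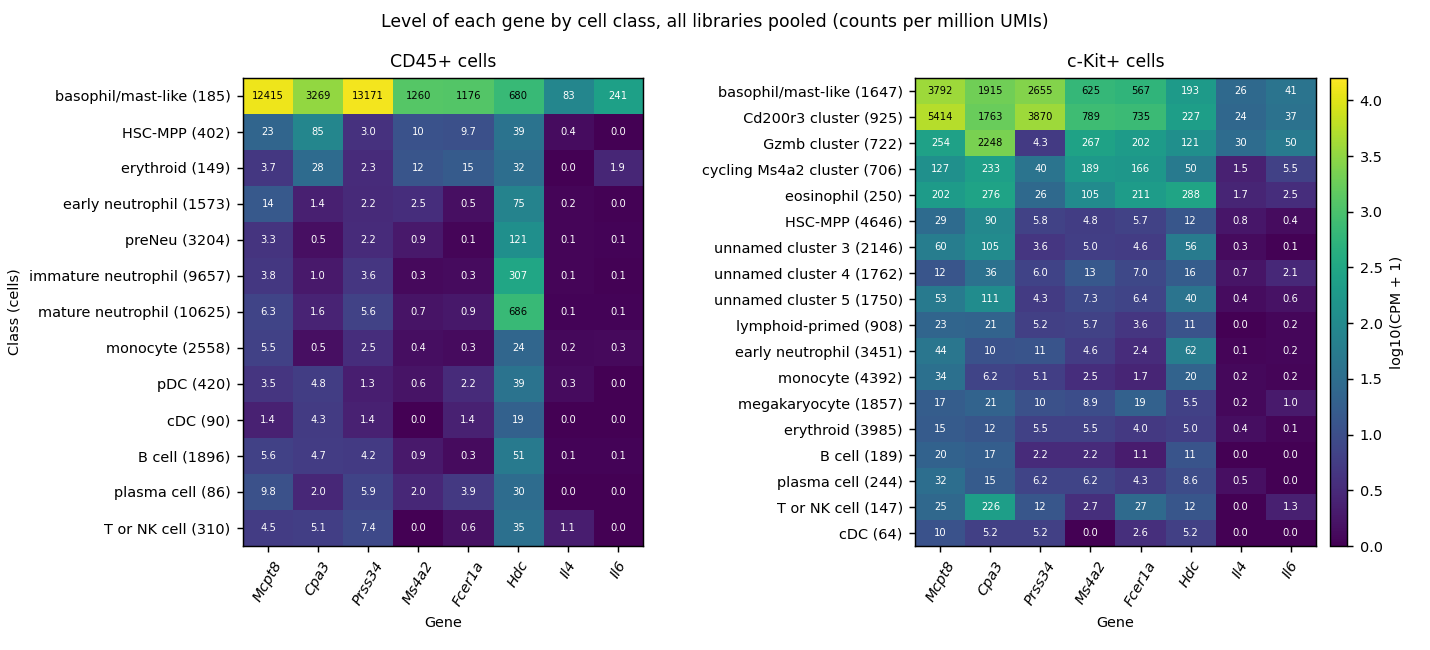
Level of each gene (columns) in each cell class (rows, with the number of cells) of CD45+ and c-Kit+ marrow, all 6 libraries of a sort pooled. Numbers are CPM and color is log10(CPM + 1). The basophil/mast-like rows stand out for all genes but Hdc, whose pooled CD45+ level was 686 CPM in mature neutrophils and 680.3 CPM in that class, an order that turned between WT and vehicle.

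Counted cell by cell at equal depth, nearly all cells with Prss34 in the CD45+ class and the Cd200r3 cluster also held Mcpt8. After each CD45+ cell was thinned to 1000 UMIs, 152 of 185 cells of the class (82.2%) held an Mcpt8 UMI and 110 (59.5%) held a Prss34 UMI, and 99.1% of the Prss34 cells also held Mcpt8. In the Cd200r3 cluster at 3000 UMIs per cell, 85.8% of 892 cells held Cpa3, 62.6% Mcpt8 and 38.8% Prss34. Of those Prss34 cells 95.4% also held Mcpt8 and 98.6% also held Cpa3. In the Gzmb cluster 74.8% of 504 cells held Cpa3, 15.9% held Mcpt8 and 1.19% held Prss34. Of the Cpa3 cells, 19.6% also held Mcpt8 in the Gzmb cluster and 68.8% in the Cd200r3 cluster. In the cycling Ms4a2 cluster a minority of 694 cells held each gene, with 19.5% for Ms4a2, 17.7% for Fcer1a, 22.9% for Cpa3 and 7.78% for Mcpt8. At the same depth the unnamed clusters of 2146 and 1750 cells held Cpa3 in 19.6% and 18.2% and Mcpt8 in 13.6% and 12.2% of cells, but Ms4a2 in 1.26% and 1.795% and Fcer1a in 1.46% and 1.51%. The Mcpt8 and Cpa3 shares of the cycling cluster were thus not clearly above those of this pair, and the Mcpt8 share of the Gzmb cluster was little above them. A further unnamed cluster was lower, with Cpa3 in 9.36% and Mcpt8 in 3.70% of 1485 cells.

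The c-Kit+ progenitors of vehicle-treated tumor-bearing mice held more of the basophil genes than those of WT mice, and those of IACS-70654-treated mice held less. Prss34, a basophil protease, was at 59.2 and 58.6 CPM in the WT libraries, 210.1 and 211 CPM in the vehicle libraries and 26.8 and 22.1 CPM in the IACS-70654 libraries. Mcpt8 was at 140.0 and 112 CPM in the WT libraries, 303 and 335 CPM in the vehicle libraries and 61.4 and 55.2 CPM in the IACS-70654 libraries. For both proteases the vehicle libraries were the highest, the IACS-70654 libraries the lowest, and no groups overlapped. Relative to WT, Prss34 was higher with vehicle by a log2 change of 1.82 ± 0.051, adjusted p = 1.72e-14, and Mcpt8 by 1.31 ± 0.071, adjusted p = 6.80e-11 (edgeR). Relative to vehicle, the log2 changes with IACS-70654 were -3.14 ± 0.054, adjusted p = 5.23e-17 and -2.50 ± 0.074, adjusted p = 2.88e-14 (edgeR).

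Both receptor chains moved the same way. Fcer1a, which binds IgE, was at 24.1 and 22.2 CPM in the WT libraries, 53.7 and 56.3 CPM in the vehicle libraries and 8.83 and 8.71 CPM in the IACS-70654 libraries. Ms4a2, the signal-amplifying chain, was at 34.3 and 30.5 CPM in the WT libraries, 51.5 and 52.8 CPM in the vehicle libraries and 11.96 and 11.7 CPM in the IACS-70654 libraries. Again vehicle was above WT and IACS-70654 below it, without overlap. In edgeR, the vehicle change was 1.22 ± 0.044, adjusted p = 4.48e-13 for Fcer1a and 0.66 ± 0.045, adjusted p = 1.90e-09 for Ms4a2, and the IACS-70654 change was -2.69 ± 0.049, adjusted p = 8.30e-17 and -2.19 ± 0.050, adjusted p = 1.07e-15.

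Cpa3 and Hdc did not follow the fall with IACS-70654. Cpa3 was at 85.3 and 88.8 CPM in the WT libraries, 115 and 128 CPM in the vehicle libraries and 117 and 109 CPM in the IACS-70654 libraries, and Hdc at 27.4 and 25.1 CPM in the WT libraries, 37.5 and 40.4 CPM in the vehicle libraries and 33.1 and 32.8 CPM in the IACS-70654 libraries. For both genes the WT libraries were the lowest. In the edgeR fit, Cpa3 differed between vehicle and WT by 0.46 ± 0.045, adjusted p = 1.96e-07, a size under the threshold, and Hdc by 0.53 ± 0.047, adjusted p = 5.96e-08. With IACS-70654 the changes were -0.15 ± 0.043, adjusted p = 0.0085 and -0.28 ± 0.042, adjusted p = 3.42e-05, both under the threshold in size. The Hdc call against WT was lost without WT replicate 2 (0.46) or vehicle replicate 2 (0.50), and the Cpa3 change against WT passed without vehicle replicate 1 (0.54).

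The cytokines were rare, with 15 to 139 Il4 UMIs and 15 to 170 Il6 UMIs per c-Kit+ library. Il4 was at 1.18 and 1.03 CPM in the WT libraries, 2.11 and 2.19 CPM in the vehicle libraries and 0.714 and 0.439 CPM in the IACS-70654 libraries, and Il6 at 1.99 and 2.42 CPM in the WT libraries, 2.58 and 3.29 CPM in the vehicle libraries and 1.07 and 0.439 CPM in the IACS-70654 libraries. With IACS-70654 both fell, by edgeR log2 changes of -1.86 ± 0.21, adjusted p = 1.58e-06 (Il4) and -1.81 ± 0.23, adjusted p = 6.27e-06 (Il6). Without IACS-70654 replicate 1 the Il6 change was -2.74. Against WT, Il4 rose with vehicle by 0.93 ± 0.21, adjusted p = 0.0017, a call lost without WT replicate 2 (0.83, adjusted p = 0.015) or vehicle replicate 1 (0.95, adjusted p = 0.022) and with DESeq2 (adjusted p = 0.035), and Il6 changed by 0.36 ± 0.21, adjusted p = 0.20. In total 6 of 8 members rose with vehicle, where 6.41% of 15750 genes tested were called higher, and 6 fell with IACS-70654, where 6.72% were called lower. In sums over all cells, fewer cells of a type and less RNA per cell cannot be told apart.

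**Figure D2:**
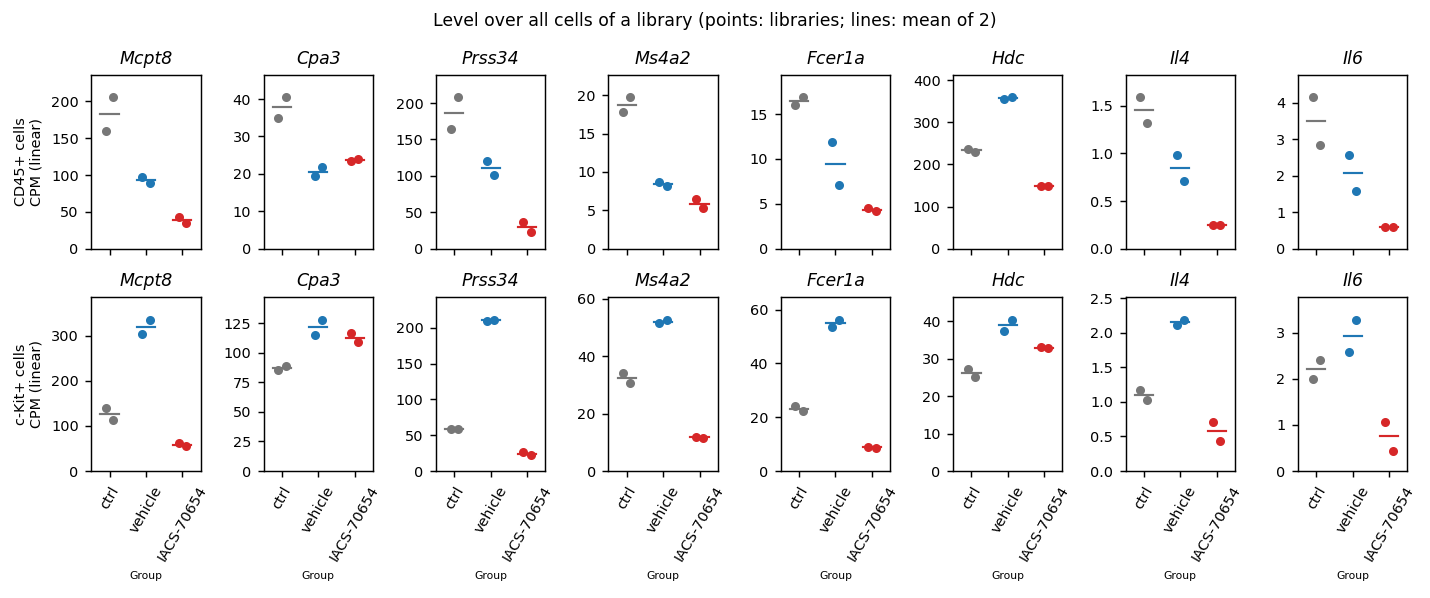
Level of each gene over all cells of a library (CPM, linear axis from 0), CD45+ and c-Kit+ cells, by group (WT labelled ctrl). Points are libraries and lines are means of 2 libraries. Mcpt8 and Prss34 were highest in WT among CD45+ cells and highest in vehicle among c-Kit+ cells.

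The share of c-Kit+ cells in the Cd200r3 cluster changed. Its cells made up 3.64% and 3.59% of c-Kit+ cells in the WT libraries, 6.45% and 6.10% in the vehicle libraries and 0.705% and 0.579% in the IACS-70654 libraries, without overlap. In an edgeR fit of cell counts the vehicle change was 0.80 (log2; adjusted p = 4.9e-07) and the IACS-70654 change -3.26 (adjusted p = 5.9e-25). The cycling Ms4a2 cluster was at 2.503% and 2.47%, 2.18% and 1.87%, and 2.70% and 3.13% in the same order, with an IACS-70654 change of 0.47 (adjusted p = 0.0051). Ms4a2 and Fcer1a, which lead it, differed between the groups inside it, so this share need not count the same kind of cell in each group. The Gzmb cluster was at 2.89% and 2.93%, 2.33% and 2.82%, and 2.42% and 2.45%, and Gzmb, which leads it, itself differed between the groups inside it, so these shares are given as values only. The whole class was at 6.53% and 6.51% (WT), 8.78% and 8.92% (vehicle) and 3.13% and 3.03% (IACS-70654), with changes of 0.44 (adjusted p = 0.00088) and -1.52 (adjusted p = 3.8e-06). Tests of the clusters one by one were added after the data were seen.

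Counting cells by the genes in place of clusters gave the same order. These counts use the same UMIs as the levels above and rise with the level per cell, so they are not separate support for a change in cell number. At 3000 UMIs per cell, cells with at least 3 Mcpt8 UMIs were 2.01% and 1.49% (WT), 4.69% and 5.20% (vehicle) and 0.621% and 0.439% (IACS-70654) of c-Kit+ cells. Cells with at least 3 Prss34 UMIs were 0.761% and 0.903%, 2.34% and 2.75%, and 0.177% and 0.129%. Cells with both an Ms4a2 and an Fcer1a UMI were 2.53% and 2.43%, 6.06% and 6.11%, and 0.769% and 0.645%. By contrast, cells with at least 3 Cpa3 UMIs and no Prss34 were 2.80% and 3.13%, 3.23% and 3.05%, and 3.47% and 3.64%. Of those cells, 69.9% and 63.3% (WT), 75.5% and 80.2% (vehicle) and 33.6% and 33.3% (IACS-70654) belonged to the class, and the rest lay in other classes.

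**Figure D3:**
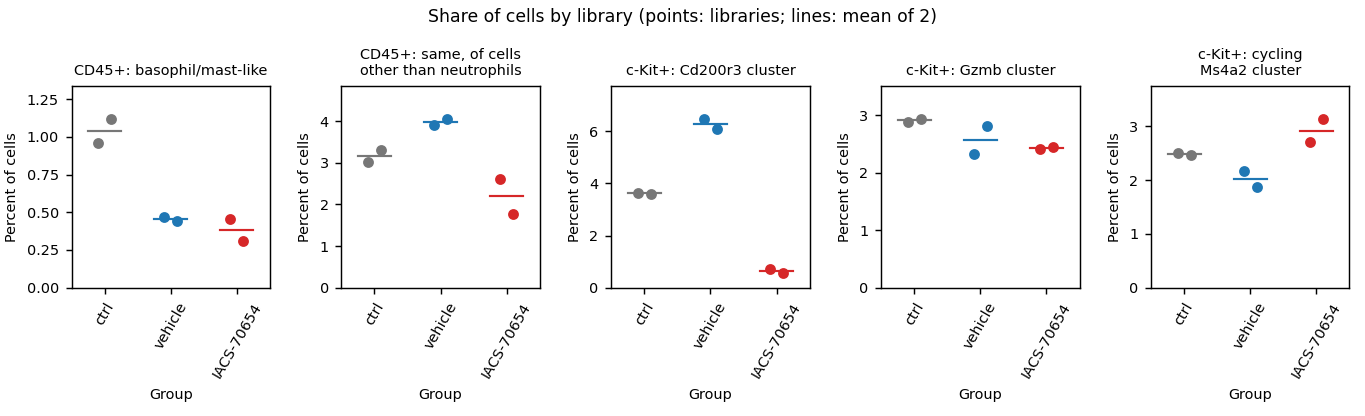
Share of cells (percent, linear axis) in the CD45+ basophil/mast-like class, that class among CD45+ cells other than neutrophils, and the Cd200r3, Gzmb and cycling Ms4a2 clusters of c-Kit+ cells, by group (WT labelled ctrl). Points are libraries and lines means of 2. The Cd200r3 cluster ran from 0.579% with IACS-70654 to 6.45% with vehicle.

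Within the Cd200r3 cluster the protease levels were higher in tumor-bearing mice, whether or not they received IACS-70654. Prss34 was at 1916 and 2021 CPM in the WT libraries, 4609 and 4790.4 CPM in the vehicle libraries and 4225 and 3965 CPM in the IACS-70654 libraries, and Mcpt8 at 3934 and 3396 CPM in the WT libraries, 5864 and 6688 CPM in the vehicle libraries and 5836 and 5974 CPM in the IACS-70654 libraries. Each tumor-bearing library was above both WT libraries. Vehicle against WT gave 1.26 ± 0.058, adjusted p = 2.60e-28 for Prss34 and 0.78 ± 0.057, adjusted p = 2.63e-17 for Mcpt8 (edgeR), and IACS-70654 against vehicle gave -0.27 ± 0.061, adjusted p = 0.0035 and -0.16 ± 0.061, adjusted p = 0.15, both under the threshold in size. These levels come from 141 and 109 cells (WT), 424 and 173 (vehicle), and 53 and 25 (IACS-70654). Whether these were the same kind of cell in each group was not tested. A changed mix and a change per cell thus cannot be told apart in this cluster.

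Cpa3 rose stepwise in this cluster. It was at 1280.3 and 1305 CPM in the WT libraries, 1667 and 2016 CPM in the vehicle libraries and 3424 and 3425 CPM in the IACS-70654 libraries, without overlap, and its edgeR log2 change was 0.51 ± 0.067, adjusted p = 1.57e-07 with vehicle and 0.83 ± 0.070, adjusted p = 1.32e-14 with IACS-70654. The vehicle call was lost without WT replicate 1 (0.49) or vehicle replicate 2 (0.38), and by library size only, where the change was just under the threshold of 0.5. Fcer1a was at 512 and 472 CPM in the WT libraries, 839.6 and 931 CPM in the vehicle libraries and 501 and 540.1 CPM in the IACS-70654 libraries and was higher with vehicle (0.84 ± 0.081, adjusted p = 2.61e-12) and lower again with IACS-70654 (-0.85 ± 0.11, adjusted p = 2.66e-08). Ms4a2, at 701 and 738 (WT), 786 and 902 (vehicle) and 697 and 1034 CPM (IACS-70654), passed neither test. Hdc was at 254 and 205 (WT), 199.8 and 233 (vehicle) and 342 and 362 CPM (IACS-70654) and rose with IACS-70654 by 0.64 ± 0.14, adjusted p = 0.0028, a call lost without vehicle replicate 1 (0.50), IACS-70654 replicate 1 (0.66) or IACS-70654 replicate 2 (0.61), with DESeq2 (adjusted p = 0.016) and without a filter on low counts (adjusted p = 0.015). In all, 4 members were higher with vehicle, against 0.307% of 8473 genes, and 3 changed with IACS-70654, against 1.14%.

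In the Gzmb cluster Cpa3 and Hdc rose with IACS-70654. Here too the mix of cells was not tested, so a changed mix and a change per cell cannot be told apart. Cpa3 stood at 1580.4 and 1558 CPM in the WT libraries, 1429.9 and 1295 CPM in the vehicle libraries and 3675 and 3492 CPM in the IACS-70654 libraries, and the IACS-70654 libraries were above all others, with an edgeR log2 change of 1.34 ± 0.068, adjusted p = 6.50e-44. Hdc was at 103 and 125 (WT), 73.7 and 77.7 (vehicle) and 167 and 172 CPM (IACS-70654), with 1.12 ± 0.21, adjusted p = 2.05e-05. Fcer1a was at 74.5 and 85.7 CPM in the WT libraries, 194 and 220.2 CPM in the vehicle libraries and 309 and 296 CPM in the IACS-70654 libraries. Both vehicle libraries exceeded WT (1.31 ± 0.21, adjusted p = 4.18e-06), and the further rise with IACS-70654 missed the threshold (0.53 ± 0.15, adjusted p = 0.021), and Ms4a2 ran between 237 and 327 CPM.

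Mcpt8, at 85.5 and 421 (WT), 357 and 272 (vehicle) and 212 and 163 CPM (IACS-70654), overlapped between WT and the rest of the Gzmb cluster and was lower with IACS-70654 than with vehicle (-0.79 ± 0.19, adjusted p = 0.0017, edgeR). Il6, at 59.2 and 58.8 (WT), 64.0 and 71.2 (vehicle) and 36.0 and 14.1 CPM (IACS-70654), was also lower (-1.27 ± 0.32, adjusted p = 0.0041). Prss34 had 0 to 5 UMIs per library and was not tested. The Hdc call was lost without vehicle replicate 1 (1.06, adjusted p = 0.025), the Mcpt8 call without vehicle replicate 1 (-0.55) or IACS-70654 replicate 2 (-0.66), and the Il6 call without vehicle replicate 1 (-1.38), vehicle replicate 2 (-1.21) or IACS-70654 replicate 2 (-0.92) or with the libraries of the 2 groups only (adjusted p = 0.012), whereas without IACS-70654 replicate 1 Il6 changed by -2.25. DESeq2 did not call Fcer1a with vehicle (adjusted p = 0.018), or Hdc (adjusted p = 0.015) and Mcpt8 (adjusted p = 0.90) with IACS-70654. Altogether 1 member changed with vehicle, against 0.0901% of 6661 genes, and 4 with IACS-70654, against 2.00%.

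Summed over both clusters, 3 members were higher with vehicle (Mcpt8, Prss34 and Fcer1a; 0.710% of 9574 genes were called higher) and 5 changed with IACS-70654 (9.64% were called). Mcpt8, Prss34, Ms4a2 and Fcer1a were lower, with Mcpt8 at 2707 and 2330.2 (WT), 4873 and 5293 (vehicle) and 2065 and 1904 CPM (IACS-70654), and Cpa3 was higher (0.90 ± 0.046, adjusted p = 2.77e-57). These sums move with the mix of clusters, since the Cd200r3 cluster made up 55.4% of the class in WT, 71.9% in vehicle and 21.3% in IACS-70654 libraries.

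The cycling Ms4a2 cluster held less of these genes with IACS-70654. It was made up of 172 WT, 196 vehicle and 338 IACS-70654 cells. Whether these were the same kind of cell in each group was not tested, so a changed mix and a change per cell cannot be told apart. Fcer1a was at 167 and 152 CPM in the WT libraries, 366 and 358 CPM in the vehicle libraries and 8.28 and 14.7 CPM in the IACS-70654 libraries, and Ms4a2 at 233 and 161 CPM in the WT libraries, 368 and 260.3 CPM in the vehicle libraries and 70.0 and 40.8 CPM in the IACS-70654 libraries. The IACS-70654 libraries lay far below the others, and the vehicle libraries were the highest, without overlap. The edgeR log2 changes with IACS-70654 were -5.11 ± 0.19, adjusted p = 9.55e-28 (Fcer1a) and -2.57 ± 0.16, adjusted p = 4.15e-18 (Ms4a2). Mcpt8 was at 185 and 44.7 (WT), 212 and 444 (vehicle) and 11.3 and 10.2 CPM (IACS-70654), and changed by -4.79 ± 0.35, adjusted p = 1.41e-15. Cpa3, at 242 and 184 (WT), 393 and 343 (vehicle) and 100.1 and 163 CPM (IACS-70654), and Hdc, at 64.3 and 54.3 (WT), 78.2 and 86.8 (vehicle) and 21.8 and 16.99 CPM (IACS-70654), changed by -1.63 ± 0.13 and -2.08 ± 0.23, and Prss34, with 4 to 132 UMIs per library, by -4.43 ± 0.52. So 6 of 6 members tested fell, against 4.07% of 8450 genes called lower. No call was lost when 1 library was left out, but the Mcpt8 change was -5.40 without vehicle replicate 1, and the Prss34 change -5.60 and -3.02 without vehicle replicates 1 and 2.

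The same genes fell at much lower levels in some of the cells that should lack them. In erythroid-like cells Fcer1a was at 3.14 and 1.52 (WT), 8.84 and 9.41 (vehicle) and 1.53 and 2.24 CPM (IACS-70654), and Mcpt8 was at 16.1 and 6.74 (WT), 25.3 and 38.9 (vehicle) and 7.34 and 6.55 CPM (IACS-70654). The edgeR log2 changes with IACS-70654 were -2.33 for Fcer1a, -2.74 for Ms4a2, -2.05 for Mcpt8 and -1.54 for Prss34, all called, and all 4 were also called higher with vehicle. Of all genes tested in these cells, 5.08% were called lower with IACS-70654 and 0.869% higher with vehicle. In early neutrophil-like c-Kit+ cells the changes with IACS-70654 were -2.01, -1.28, -0.89 and -2.40 for the genes in the same order, all called, against 3.16% of all genes called lower. In monocyte-like c-Kit+ cells Fcer1a (-1.41) and Mcpt8 (-1.004) fell with IACS-70654, Ms4a2 (-0.16) and Prss34 (0.46) did not pass, and Prss34 was lower with vehicle than in WT (-1.58). There 2.94% of all genes were called lower with IACS-70654 and 0.315% with vehicle. In the IACS-70654 libraries the cycling cluster, at 8.28 and 14.7 CPM, still held more Fcer1a than the erythroid-like cells of the same libraries. The part of RNA from other cells in these changes was not tested.

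Against WT, 5 members were higher with vehicle in the same cluster, where 0.402% of genes were called higher, and most of these calls rested on single libraries. Fcer1a rose by 1.16 ± 0.12, adjusted p = 1.06e-09 (edgeR) and kept its call without any 1 library. Prss34 changed by 3.67 ± 0.53, resting on 61 and 132 UMIs with vehicle, and by 4.86 and 2.26 without vehicle replicates 1 and 2. Mcpt8 (1.22 ± 0.24) moved to 2.67 without WT replicate 1 and 1.84 without vehicle replicate 1, and lost its call without WT replicate 2 (0.63) or vehicle replicate 2 (0.75). Ms4a2 (0.70 ± 0.14) lost its call without WT replicate 2 (0.49) or vehicle replicate 1 (0.36), and Cpa3 (0.78 ± 0.13) without the same libraries (0.62 and 0.66).

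**Figure D4:**
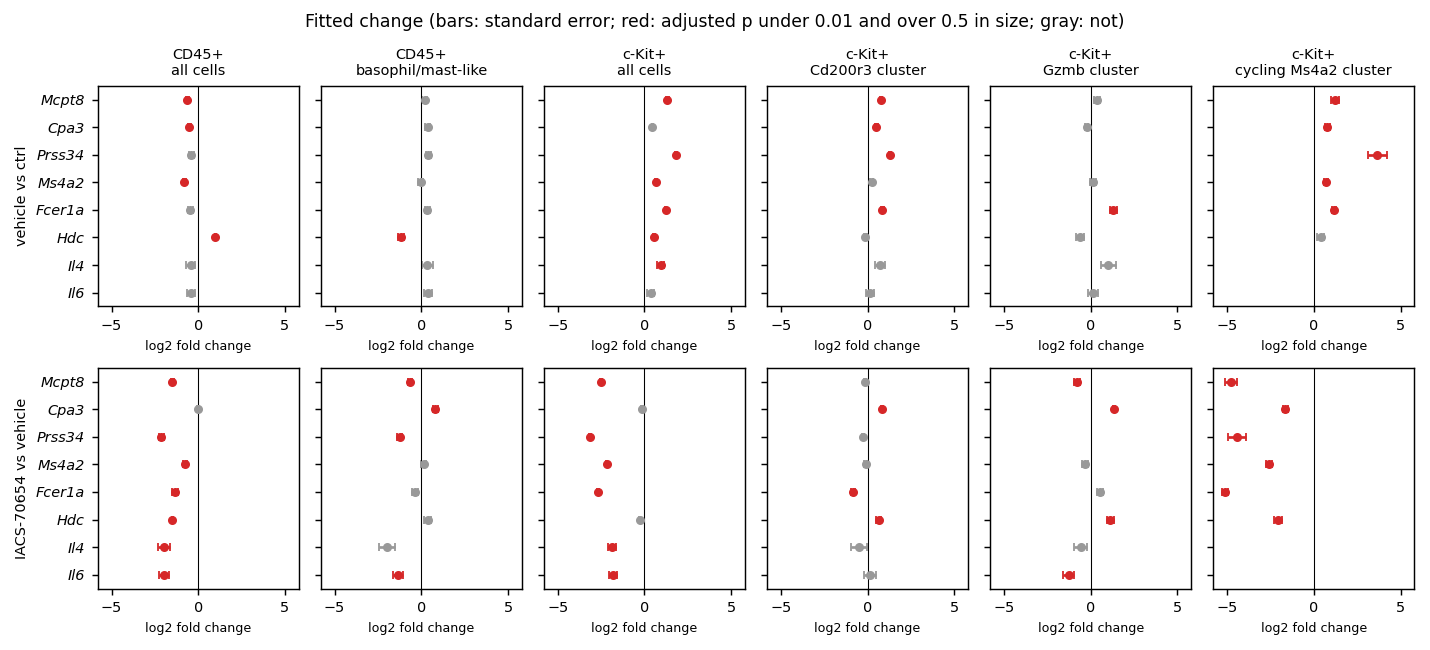
Log2 change of each gene with its SE (horizontal axis) for vehicle against WT (labelled ctrl) and IACS-70654 against vehicle, in 6 sets of cells, red where called. In c-Kit+ cells and in the cycling Ms4a2 cluster the receptor chains and proteases fell with IACS-70654, while Cpa3 rose in the Cd200r3 (0.83) and Gzmb (1.34) clusters.

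Among CD45+ cells the basophil genes were highest in WT mice. Prss34 was at 164 and 208 CPM in the WT libraries, 119.6 and 101 CPM in the vehicle libraries and 36.1 and 23.3 CPM in the IACS-70654 libraries, and Mcpt8 at 160.3 and 206 CPM in the WT libraries, 96.6 and 89.1 CPM in the vehicle libraries and 43.0 and 34.5 CPM in the IACS-70654 libraries. Each group lay below the one before, without overlap, so vehicle was below WT here and above it in c-Kit+ cells. With IACS-70654 the edgeR log2 changes were -2.13 ± 0.15, adjusted p = 4.46e-08 (Prss34) and -1.49 ± 0.10, adjusted p = 3.67e-08 (Mcpt8). With vehicle they were -0.40 ± 0.14, adjusted p = 0.02, which missed the threshold, and -0.63 ± 0.096, adjusted p = 7.33e-05. The Prss34 change passed without WT replicate 1 (-0.56) and by library size only (-0.76), and the Mcpt8 call was lost without WT replicate 2 (-0.44) or without the top 5% of doublet scores (-0.39).

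Of the receptor chains, Ms4a2 was at 17.8 and 19.7 (WT), 8.74 and 8.13 (vehicle) and 6.45 and 5.28 CPM (IACS-70654) and Fcer1a at 15.996 and 16.9 (WT), 11.8 and 7.04 (vehicle) and 4.52 and 4.16 CPM (IACS-70654), again with WT highest and IACS-70654 lowest. Their IACS-70654 changes were -0.76 ± 0.097, adjusted p = 1.52e-05 and -1.33 ± 0.18, adjusted p = 2.07e-05 (edgeR). Vehicle against WT gave -0.80 ± 0.088, adjusted p = 3.04e-06 for Ms4a2 and -0.47 ± 0.16, adjusted p = 0.019 for Fcer1a, which passed the threshold without vehicle replicate 1 (-0.87) and by library size only (-0.82). Cpa3 was at 35.0 and 40.5 (WT), 19.5 and 21.7 (vehicle) and 23.5 and 23.9 CPM (IACS-70654). It was lower with vehicle (-0.52 ± 0.070, adjusted p = 2.18e-05), a call lost without WT replicate 2 (-0.41) or vehicle replicate 1 (-0.44), with DESeq2 (-0.47), with the libraries of the 2 groups only (-0.48) and without the top 5% of doublet scores (-0.30), and not with IACS-70654 (-0.03 ± 0.069, adjusted p = 0.75). Il4 and Il6 had 10 to 43 and 24 to 112 UMIs per library and fell with IACS-70654 by log2 changes of -1.96 ± 0.34 and -1.99 ± 0.29.

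With Hdc, described below, 4 of 8 members changed with vehicle, against 24.4% of 15774 genes called in either direction, and 7 fell with IACS-70654, against 9.66% called lower. The scaling matters for this sort. Scaling by library size alone moved the median log2 change of all genes from -0.064 to -0.42 with vehicle and from 0.012 to 0.24 with IACS-70654, and the share of called genes that were higher from 39.5% to 8.73% and from 51.0% to 80.1%. Without the cells of the basophil/mast-like class, a setting added after the data were seen, Mcpt8 changed by 0.0037 with vehicle and -0.041 with IACS-70654 in the CD45+ sums. In the same setting Prss34 changed by 0.62 with vehicle (adjusted p = 0.0051, edgeR) and by -0.47 with IACS-70654 (adjusted p = 0.015), Fcer1a by -0.88 with IACS-70654 (adjusted p = 0.092) and Cpa3 by 1.08 with IACS-70654 (adjusted p = 0.0028). No member's direction with IACS-70654 turned with the scaling besides that of Cpa3 (0.20 by library size).

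The class itself held 0.961% and 1.115% of the CD45+ cells of WT libraries, 0.469% and 0.444% of vehicle and 0.452% and 0.309% of IACS-70654 cells, that is 19 to 49 cells per library. Its change with vehicle was -1.18 (log2, edgeR, adjusted p = 0.0025), and with IACS-70654 -0.29 (adjusted p = 0.39). Neutrophils moved at the same time. Of the cells other than neutrophils, the class made up 3.03% and 3.30%, 3.91% and 4.04%, and 2.62% and 1.77%, and on this base the changes were 0.33 (adjusted p = 0.33) with vehicle and -0.89 (adjusted p = 0.018) with IACS-70654. The direction against WT turned with the denominator. Cells with at least 3 Mcpt8 UMIs at 1000 UMIs per cell, all of them in the class, were 0.683% and 0.757%, 0.394% and 0.315%, and 0.269% and 0.230% of CD45+ cells.

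Within the CD45+ class, Prss34 was lower and Cpa3 higher with IACS-70654 than with vehicle. Whether the class held the same kinds of cell in each group was not tested. A changed mix and a change per cell thus cannot be told apart for any gene here. At equal depth, some class cells held at least 3 Cpa3 UMIs and no Prss34 UMI. They numbered 5 and 2 (WT), 1 and 1 (vehicle) and 5 and 4 (IACS-70654). Class cells with at least 3 Prss34 UMIs numbered 25 and 25, 18 and 16, and 11 and 7. The class held 44 and 49, 24 and 27, and 22 and 19 cells. Prss34 was at 11182 and 15243 CPM in the WT libraries, 17189 and 17087 CPM in the vehicle libraries and 8844 and 6189.7 CPM in the IACS-70654 libraries. Both IACS-70654 libraries were below all others, and the edgeR log2 change against vehicle was -1.25 ± 0.14, adjusted p = 4.36e-07, which kept its call without any 1 library. Cpa3, at 2109.5 and 2785 CPM in the WT libraries, 2601 and 3519.7 CPM in the vehicle libraries and 5445 and 5600.2 CPM in the IACS-70654 libraries, was higher with IACS-70654 than in all other libraries (0.80 ± 0.15, adjusted p = 9.10e-04). Mcpt8, at 10777 and 14704 CPM in the WT libraries, 13645 and 14619.8 CPM in the vehicle libraries and 9883 and 8736 CPM in the IACS-70654 libraries, was lower (-0.66 ± 0.13, adjusted p = 0.0017). The Cpa3 call was lost without vehicle replicate 1 (0.62, adjusted p = 0.033) or IACS-70654 replicate 2 (0.76, adjusted p = 0.023), and the Mcpt8 call without IACS-70654 replicate 1 (-0.72) or 2 (-0.59). The Mcpt8 call was also lost with upper-quartile factors (adjusted p = 0.012), DESeq2 (adjusted p = 0.029), all barcodes (adjusted p = 0.040) and without the top 5% of doublet scores (adjusted p = 0.062), and the Cpa3 call in the last of these (adjusted p = 0.022).

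Il6 in the class was at 286 and 205 (WT), 372 and 247 (vehicle) and 120.0 and 136 CPM (IACS-70654), from 18 to 111 UMIs, and changed with IACS-70654 by -1.33 ± 0.29, adjusted p = 0.0053 (edgeR), a call lost without vehicle replicate 1 (-0.98), IACS-70654 replicate 1 (-1.22) or 2 (-1.44). The Il6 call was also lost with DESeq2 (adjusted p = 0.082) and, in edgeR, without the top 5% of doublet scores (adjusted p = 0.031). Il4, with 34, 33, 31, 20, 6 and 3 UMIs, changed by -2.00 ± 0.47, adjusted p = 0.011, which just missed the threshold of 0.01. It was called without WT replicate 1 (-2.00), WT replicate 2 (-2.01) or vehicle replicate 2 (-2.32). The receptor chains did not pass, with Ms4a2 between 1129.5 and 1446 CPM and Fcer1a between 995 and 1597 CPM. In all, 4 members changed with IACS-70654, against 1.39% of 4589 genes.

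Hdc was the 1 member that changed in this class with vehicle, where 0.0872% of genes were called. It was at 1019 and 817 CPM in the WT libraries, 346 and 443 CPM in the vehicle libraries and 546 and 513 CPM in the IACS-70654 libraries. Both WT libraries were above all others, and the log2 change was -1.18 ± 0.19, adjusted p = 4.17e-04 (edgeR). Ccl4, a chemokine of activated basophils, moved with it, at 1549.9 and 937 CPM in WT, 225 and 294 CPM in vehicle and 479.8 and 348 CPM in IACS-70654 libraries.

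In neutrophils Hdc went the other way with vehicle. Summed over all stages it was at 346 and 347 CPM in the WT libraries, 422 and 418 CPM in the vehicle libraries and 185 and 185 CPM in the IACS-70654 libraries. The 3 groups did not overlap. Vehicle against WT gave 0.49 ± 0.031, adjusted p = 6.16e-11 (edgeR), a size just under the threshold that passed it without vehicle replicate 2 (0.50), and IACS-70654 against vehicle gave -1.48 ± 0.031, adjusted p = 2.67e-19, among 11.4% of 14026 genes called lower. The stages differed in level. PreNeu-like cells, the dividing neutrophil precursors, were at 105 and 105 (WT), 162 and 155 (vehicle) and 79.8 and 79.6 CPM (IACS-70654), and mature neutrophil-like cells at 719 and 747 (WT), 827 and 795 (vehicle) and 451 and 441 CPM (IACS-70654). IACS-70654 lowered both, with -1.22 ± 0.060, adjusted p = 1.89e-20 and -1.21 ± 0.033, adjusted p = 1.13e-38, and Hdc was higher with vehicle than in WT in preNeu-like cells (0.75 ± 0.059, adjusted p = 4.22e-13). In the other stages the vehicle change was under the threshold in size, at 0.18 (early), 0.29 (immature) and 0.20 (mature).

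Mature neutrophils lay in different clusters by group, with some overlap. Clusters led by Prok2 and Retnlg and by Gm16556 and Slc7a11 held 48.5% and 38.1% of them in WT, a cluster led by Acod1 and Sycp2 held 48.9% in vehicle, where the Prok2 cluster held another 28.8%, and a cluster led by Ifitm1 and Il1b held 86.3% with IACS-70654. Before thinning, 71.0% to 73.8% of mature neutrophils held an Hdc UMI in WT, 82.7% to 83.6% in vehicle and 60.5% to 63.4% with IACS-70654. Thinned to 1000 UMIs, which left out 9 to 43 cells per library, 44.9% and 46.8% of mature neutrophils held an Hdc UMI in WT, 53.4% and 53.7% in vehicle and 33.5% and 31.4% with IACS-70654. B cells, which should lack the enzyme, held one in 2.73% to 4.26% of cells (median depth of B cells 3004 to 4285 UMIs, of mature neutrophils 2604.5 to 3103), and their Hdc level was 39.5 and 44.6 (WT), 71.96 and 86.6 (vehicle) and 65.4 and 68.3 CPM (IACS-70654). Monocyte-like cells were at 17.4 and 22.7 (WT), 32.2 and 29.5 (vehicle) and 23.0 and 21.8 CPM (IACS-70654).

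Cpa3 also changed in the stem and multipotent progenitor-like cells of the c-Kit+ sort. It was at 69.8 and 94.2 CPM in the WT libraries, 32.0 and 32.0 CPM in the vehicle libraries and 118 and 115 CPM in the IACS-70654 libraries. The vehicle libraries were the lowest and the IACS-70654 libraries the highest, without overlap. The edgeR log2 changes were -1.40 ± 0.13, adjusted p = 2.79e-16 with vehicle, where 0.333% of 11412 genes were called lower, and 1.86 ± 0.10, adjusted p = 2.47e-35 with IACS-70654, where 1.29% were called higher, and each kept its call without any 1 library. Mcpt8 rose with IACS-70654 as well, from 19.8 and 26.2 to 33.2 and 32.2 CPM (0.56 ± 0.15, adjusted p = 0.0033), and the other 4 members tested passed in neither comparison. Cpa3 moved in the same way in the unnamed cluster of 2146 cells, at 141 and 117 (WT), 56.9 and 47.6 (vehicle) and 116 and 124 CPM (IACS-70654), with called changes of -1.34 with vehicle and 1.17 with IACS-70654. It was also called higher with IACS-70654 in the unnamed cluster of 1750 cells (0.61) and in megakaryocyte-like cells (1.09), where the vehicle changes did not pass (0.18 and -0.53).

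At 3000 UMIs per cell, 12.1% and 12.9% of HSC-MPP cells of WT mice held a Cpa3 UMI, as did 5.66% and 6.67% of those of vehicle and 18.7% and 16.2% of those of IACS-70654 mice. This left out 27 to 339 shallower cells per library, and before it the shares were 15.5% and 18.7%, 9.22% and 8.01%, and 20.7% and 18.7%. Erythroid-like cells, which should lack Cpa3, held a UMI in 1.33% to 4.75% of cells (median depth 12978 to 14377 UMIs, against 4252 to 5266 in HSC-MPP cells). Their Cpa3 level moved the other way, at 10.6 and 4.79 (WT), 15.7 and 23.3 (vehicle) and 15.0 and 9.26 CPM (IACS-70654). The larger of the 2 HSC-MPP clusters held 69.3%, 62.7% and 83.5% of these cells in WT, vehicle and IACS-70654 libraries.

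**Figure D5:**
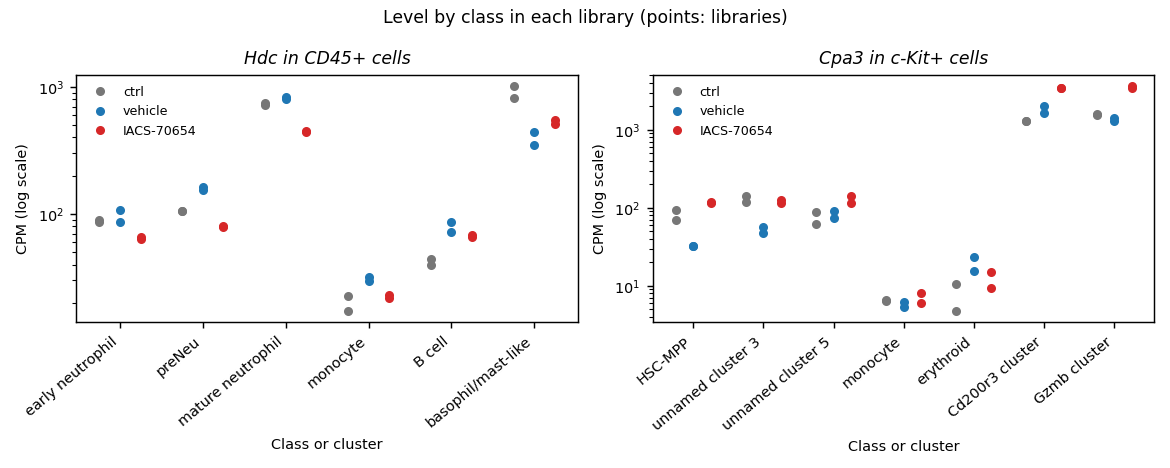
Level (CPM, log axis) of Hdc in CD45+ classes and of Cpa3 in c-Kit+ classes by group (WT labelled ctrl), with points for libraries. Hdc fell with IACS-70654 in each neutrophil stage drawn, and Cpa3 in HSC-MPP cells ran from 32.0 CPM in vehicle to 118 CPM with IACS-70654.

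The change with IACS-70654 was tested against itself between the sorts. The log2 change in c-Kit+ cells minus that in CD45+ cells was -0.95 for Mcpt8, -0.96 for Prss34, -1.38 for Ms4a2, -1.32 for Fcer1a and 1.26 for Hdc, with edgeR adjusted p from 1.6e-12 to 0.00015. So the basophil proteases and receptor chains fell further in c-Kit+ cells and Hdc fell further in CD45+ cells. Cpa3 (-0.07), Il4 (0.15) and Il6 (0.24) did not pass. The 5 members are to be read against 33.1% of 16959 genes that differed between the sorts.

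Of 75 other genes of basophils and mast cells (IgE receptor signaling, granule, lipid mediator, receptor, cytokine and transcription factor genes), 52 were tested in the Cd200r3 cluster. There Ccl4 fell with vehicle (-1.12; 0.472% of all genes were called) and Ctsg, a granule protease, with IACS-70654 (-0.58; 1.14% of all genes), and no other passed. In the Gzmb cluster 0 of 50 passed with vehicle by edgeR and 0 by DESeq2, while 5 had an unadjusted edgeR p below 0.05, and with IACS-70654 6 were higher and 1 lower (0.631% and 1.37% of all genes). Mitf, the master transcription factor of mast cells, was at 162 and 105 (WT), 104 and 64.8 (vehicle) and 308 and 399.9 CPM (IACS-70654) and changed by 1.88 (log2), and Il1rl1, the IL-33 receptor, was at 274 and 154 (WT), 160.1 and 172 (vehicle) and 433 and 518 CPM (IACS-70654) and changed by 1.46. The others higher were Cd200r3 (3.48), Hs3st1 (1.28) and Alox5 (1.00), besides 1 more, and Gzmb was lower (-2.86).

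In the cycling Ms4a2 cluster, 2 of 49 such genes rose with IACS-70654 and 14 fell (1.98% and 4.07% of all genes). Those that fell included Csf2rb2 (-2.91) and Csf2rb (-2.38), the receptor subunits for IL-3 and GM-CSF, and Cebpa (-2.08), a myeloid transcription factor. With vehicle 4 rose (0.402% of all genes), namely Csf2rb (1.23), Gab2 (0.84), Ctsg (0.70) and Runx1 (0.62). In the CD45+ class, 46 were tested, of which Ccl4 fell with vehicle (-2.23; 0.0872% of all genes were called), and Gzmb (-3.90) and Ctsg (-0.97) fell with IACS-70654 (1.39% of all genes). Over all c-Kit+ cells, 15 of 65 rose and 6 fell with vehicle (6.41% and 3.35% of all genes), led by Prg2 (1.73) and Gfi1b (-1.14), and 4 rose and 15 fell with IACS-70654 (3.77% and 6.72% of all genes), led by Gzmb (-2.39), Prg2 (-2.19) and Cd200r3 (-1.78). Over all CD45+ cells 12 of 65 rose and 21 fell with vehicle (9.64% and 14.8% of all genes), and 5 rose and 9 fell with IACS-70654 (10.1% and 9.66% of all genes). The counts with IACS-70654 in CD45+ cells lie near these shares.

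The genes most like each member were taken by Pearson's r of log2(CPM + 1) over the class sums of each library, with no test, since the sums share libraries and cell classes. Over 93 c-Kit+ sums and 16002 genes these were Cd200r3 (0.85), Il4 (0.81) and Cdh1 (0.80) for Mcpt8, and Il4 (0.85), Cd200r3 (0.83) and Alox12e (0.83) for Prss34. Cpa3 stood apart from the other granule genes, with Ikzf2 (0.87), Mdga1 (0.82) and Alox5 (0.82). Ms4a2 was most like Gm11697 (0.88), Fcer1a (0.84) and Abca8b (0.84), and Fcer1a like Ms4a2 (0.84), Abca8b (0.81) and Gm11697 (0.81). Il4 was most like Cd200r3 (0.88), Alox12e (0.88) and Cma1 (0.87), and Il6 like Alox12e (0.84), Il4 (0.83) and Abca8b (0.83). Hdc, over 74 CD45+ sums and 15502 genes, was most like 2310001H17Rik (0.81), Ccr1 (0.81) and Alox5 (0.81).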

How the data were processed

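Per the labels and the study's methods, the authors tagged cells with CellPlex oligos and made UMI count matrices with Cell Ranger 7.2.0 (genome build mm10); the counts are as deposited and not normalized. Cells with 200 to 6000 genes and at most 10% mitochondrial UMIs were kept (scanpy 1.11.5, Python 3.11.15). Each sort was clustered (2000 variable genes without the 8 members, 30 components, 20 neighbors, Leiden resolution 1), and clusters were named from marker lists, so names are rebuilt ones. Scrublet marked 0% to 1.922% of a library's cells, which is too few to have worked, so doublets were kept and the top 5% of scores were left out in an alternative.

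Counts were summed per library and class (at least 10 cells) and tested with edgeR 4.0.16 (R 4.3.3; quasi-likelihood, TMM, the 6 libraries of a sort in 1 fit, Benjamini-Hochberg over all genes tested), with DESeq2 1.42.0 as an alternative. Scripts were tested on simulated data. Cell counts per class were tested with edgeR (threshold 0.05). The depth of a library was 27427163 to 68415534 UMIs. Intervals and shares cover counting error only. Replicate numbers come from the labels, but deviations of same-numbered libraries correlated at -0.125 to 0.023, so no pairing was assumed. All 8 members are named, and of 75 related genes up to 6 called ones per comparison with the largest change. The members and lists were chosen with earlier results of these data known. The 4 tumor libraries were not used.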

Additional observations from a re-analysis of the deposited data

Results flagged for a closer look

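The change with IACS-70654 against vehicle differed between the sorts for 5 of the 8 genes, by an edgeR test of the difference itself. In the same test 33.1% of 16959 genes differed. The log2 change in c-Kit+ cells minus that in CD45+ cells was -0.954 for Mcpt8, -0.964 for Prss34, -1.380 for Ms4a2, -1.317 for Fcer1a and 1.259 for Hdc. For the first 4 genes the level fell in both sorts and fell further in c-Kit+ cells. Hdc fell by 1.497 in CD45+ cells, where neutrophils held most of its UMIs, and by 0.28 in c-Kit+ cells, a change under the threshold in size. The sorts differ in cell types and depth, whose part in these differences was not tested.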

How the results depend on the processing

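Of the counts of called members, the share tests and the Hdc tests, 91 of 96 values with 1 library left out and 147 of 157 under other settings kept their direction and their side of the threshold or stayed within 1.5 times. In CD45+ cells with vehicle, 4 called members became 7 by library size only, 2 without the top 5% of doublet scores, 2 without basophil/mast-like cells, and 2 to 5 with 1 library left out (2 without WT replicate 2). With IACS-70654, 7 became 2 without basophil/mast-like cells. Without those cells the log2 changes turned for Mcpt8 (0.0037) and Prss34 (0.616) with vehicle, and for Cpa3 to 1.08 in CD45+ cells with IACS-70654 and to -0.055 (vehicle) and 0.894 (IACS-70654) in c-Kit+ cells. In c-Kit+ cells the edgeR calls of Ms4a2 (0.500, adjusted p = 0.018) and Il4 (0.481, adjusted p = 0.38) with vehicle were then lost. So was that of Il6 with IACS-70654 (-0.862, adjusted p = 0.066). The other c-Kit+ calls, among them those of Mcpt8, Prss34 and Fcer1a in both comparisons, were kept. Their changes were thus also present in the sums without these cells. The CD45+ Cpa3 change with IACS-70654 was also 0.198 by library size only, 0.0088 without a filter, and -0.101 to 0.065 with 1 library left out.

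In the CD45+ class with IACS-70654, 4 called members became 2 with DESeq2, 1 with at least 20 cells, 1 without the top 5% of doublet scores, and 1 to 5 with 1 library left out (1 without IACS-70654 replicate 2, 2 without IACS-70654 replicate 1 or vehicle replicate 1). Among cells other than neutrophils the class changed by 0.329 with vehicle and -0.888 with IACS-70654. Hdc in neutrophils with vehicle was 0.500 without a filter and 0.482 to 0.504 with 1 library left out. Uncalled values that turned with 1 library left out were, in the CD45+ class with vehicle, Mcpt8 (-0.043 to 0.425), Ms4a2 (-0.162 to 0.078), Il4 (-0.069 to 0.641) and Il6 (-0.0016 to 0.646), and in the c-Kit+ class Hdc (-0.136 to 0.083) and Il6 (-0.104 to 0.237; -0.012 at resolution 2). Of the 5 members that rose with vehicle in the cycling Ms4a2 cluster, DESeq2 called Fcer1a, lost Cpa3, Mcpt8 and Ms4a2, and gave no adjusted p for Prss34. The causes of these moves were not tested.

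With the replicate block, 3 members were called in the CD45+ class with IACS-70654 (Mcpt8, -0.66, adjusted p = 0.025, was lost), and no other count changed. WT and vehicle numbers in CD45+ cells correlated at -0.125, and with them crossed 4 members were called. With 2 libraries per group, 15 to 170 UMIs of Il4 and Il6 in c-Kit+ cells and 19 to 49 cells in the CD45+ class, small changes were not detectable.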
